A study of Mus musculus with 23 samples.

Results

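Medullary thymic epithelial cells (mTECs) with high MHC class II, called mTEChi, were compared between Aire knockout (KO) and wild-type (WT) mice by bulk RNA sequencing. The comparison took in 11 of the 23 libraries of the series, chosen by their labels for gate and genotype, 4 of KO and 7 of WT mTEChi. The remaining 12 libraries held mTECs with low MHC class II (mTEClo) of both genotypes. All cells came from thymus of C57BL/6 mice and had been sorted as negative for DAPI, for CD45 and for the cortical marker Ly51 and as positive for EpCAM. The WT mTEChi libraries were 2 of male mice of 4 weeks (replicates 1 and 2), 3 of male mice of 5 weeks (replicates 3, 6 and 7) and 2 of female mice of 5 weeks (replicates 4 and 5). The KO mTEChi libraries were 2 of male mice of 5 weeks (replicates 1 and 2) and 2 of male mice of 6 weeks (replicates 3 and 4), so that WT of 6 weeks and KO females had no library in this gate. No treatment was labelled. The KO allele, the cells in which it was active, and whether a library held 1 animal or several are not given in the sources used here. p-values therefore measure the spread between these libraries, which may be partly technical.

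Aire is a nuclear protein of mature mTECs that promotes the transcription of many genes otherwise restricted to single peripheral organs. Peptides of these genes are presented to developing T cells in the medulla, and clones that react to them strongly are deleted or become regulatory T cells. Loss of Aire in mice and humans is known to leave such clones in place and to lead to autoimmunity in several organs. Besides antigens switched on in scattered single cells, the medulla holds small mTEC subsets that resemble muscle, tuft, ciliated, ionocyte, gut or skin cells and depend on the lineage regulators of those tissues.

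The libraries held 1602125 to 3231079 counted reads in WT and 2528049 to 3106026 in KO mTEChi. Levels are counts scaled to libraries of 1000000 (CPM), and the limit of 3 counts over a group came to 0.299 CPM in KO and 0.161 CPM in WT, which covers counting error only. All 4 KO mTEChi libraries and KO mTEClo replicates 3 and 4 held 0 counts of mitochondrially encoded genes, against at least 8184 in each WT mTEChi library. A further 317 tested genes split the 23 libraries along the same line, such as Med10, a Mediator subunit, at 64.6 to 89.2 CPM in the WT libraries and 0 in those of KO mTEChi. In this gate the split falls exactly between WT and KO, so for these genes the split and the genotype cannot be told apart. They and the 9 tested mitochondrial genes were left out of every count of tested genes below. The split genes stayed in the numbers of genes detected per library and in the summed levels of lists. A gene at 0 in any of the other 17 libraries could not be set aside as lower. Within KO mTEChi the chi-square of the counts of a pair of libraries, per degree of freedom, was 1.28 and 1.34 for pairs of the same age and 4.00 to 6.39 across ages. Within WT it was 1.23 to 2.88 for pairs of the same age and sex and 1.79 to 4.06 for the others, so that these ranges overlapped. The p-values below treat libraries as separate samples. Those of the same age and sex, called like libraries below, were also summed for comparison. In WT these were not always the most alike. WT replicate 3 gave 2.86 and 2.88 with replicates 6 and 7 of the same age and sex, but 1.79 and 1.92 with the female replicates 4 and 5.

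The sorted identity was checked in the counts. Epcam, the adhesion molecule used in the sort, stood at 215 to 309 CPM in WT and 202 to 237 CPM in KO, and the MHC class II gene H2-Aa at 546 to 812 CPM and 591 to 721 CPM. Ptprc, which encodes CD45, was at 9.64 to 35.9 CPM in WT and 5.43 to 6.96 CPM in KO, and Enpep, which encodes Ly51, at 35.9 to 61.2 CPM in WT and 1.23 to 5.13 CPM in KO. Both genes of the markers sorted against thus had reads in WT and were lower in KO (adjusted p = 8.2e-05 and 1.6e-11). The wider lists did not move with these genes. Leukocyte genes gave 6 higher and 2 lower of 9, and summed to 815 to 901 CPM in WT and 1191 to 1519 CPM in KO. Cortical epithelial genes gave 4 higher and 4 lower of 10, and summed to 906 to 1020 and 1158 to 1284 CPM. Of all tested genes 25.3% were higher and 27.6% lower.

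Aire (ENSMUSG00000000731, chromosome 10, 78030022 to 78043610 of GRCm38) was at 825, 821, 921, 818, 831, 757 and 753 CPM in WT replicates 1 to 7. In KO replicates 1 to 4 it was at 39, 39.3, 21.6 and 17.1 CPM. Every KO library lay far below every WT library, and all 4 still held reads of the gene. The mean fell from 818 ± 56 CPM (SD, n = 7) to 29.3 ± 11.6 CPM (SD, n = 4), 28-fold lower in KO (log2 change -4.87, SE 0.46, adjusted p = 5.6e-08, edgeR quasi-likelihood test with Benjamini-Hochberg adjustment, as for all adjusted p below). Means below are given ± SD over the same 7 and 4 libraries. Which part of the gene these reads came from was not tested.

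Loss of Aire went with lower levels of many genes and with rises, more of them under 2-fold, of many others. Of 18984 genes tested, 5234 were lower in KO mTEChi (27.6%) and 4807 were higher (25.3%), or 52.9% together, at an adjusted p under 0.05. Among the changes of over 2-fold, falls outnumbered rises, with 3291 genes lower (17.3%) and 1031 higher (5.43%). The median log2 change of all tested genes was -0.01. In 3653 genes (19.2%) all 4 KO libraries lay below all 7 WT libraries, and in 3355 (17.7%) all 4 lay above. Falls made up 52.1% of all calls and 76.1% of those over 2-fold. With libraries of the same age and sex summed and a correction for GC content, 4255 genes were lower and 2575 higher, so that falls made up 62.3%. The counts over 2-fold were then 3124 and 751.

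**Figure D1:**
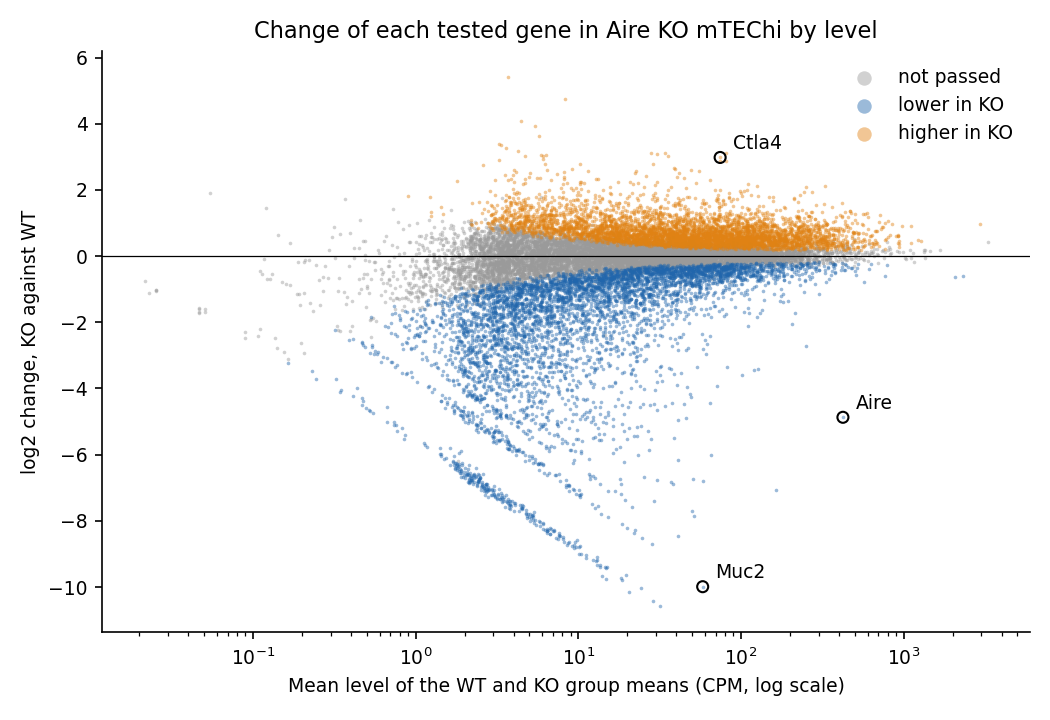
Log2 change of each tested gene in KO against WT mTEChi (vertical axis) against its mean level over both groups in CPM (horizontal axis, log scale), with genes lower at an adjusted p under 0.05 in blue, higher in orange and others in grey. Falls reach far larger sizes than rises and lie mostly at low levels, and Aire, Muc2 and Ctla4 are marked.

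The direction of change followed the level. Genes were put in order of their mean level per kb of exon over both groups and cut into 10 classes of equal size. In the lowest class 59% of genes were lower and 1.05% higher, and in the highest 9.27% were lower and 56% higher. The median log2 change went from -1.52 in the lowest class through 0.08 in the sixth to 0.35 in the highest. Counts of a library are shares of its total, so a loss in some genes and a gain in others cannot be separated on this scale. A gene with few counts could enter the test through its WT level alone. Changes over 2-fold showed the same order for falls, 56.7% in the lowest class and 1.63% in the highest. For rises over 2-fold the shares were 0.685% and 8.53%. A fall lowers the mean over both groups and a rise raises it, so the classes were also cut by the WT level alone. The lower share then went from 39.3% to 16.8% and the higher share from 8.43% to 43.9%, with medians of -0.70 and 0.21. Over 2-fold, falls went from 37.3% to 5.16%, while rises no longer went up with the level, at 6.37% and 4.21%.

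**Figure D2:**
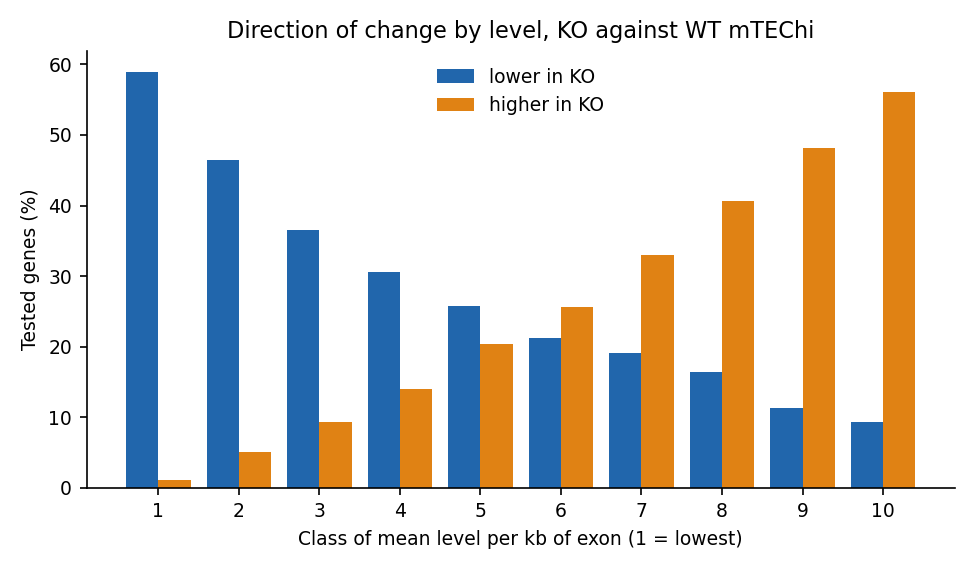
Share of tested genes lower (blue) and higher (orange) in KO mTEChi at an adjusted p under 0.05, in percent, in 10 classes of mean level per kb of exon, lowest at the left. The lower share goes from 59% to 9.27% across the classes and the higher share from 1.05% to 56%.

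Fewer genes were detected in KO libraries. Each library was thinned to 1593686 counts of genes other than the mitochondrial ones, and a gene with at least 3 counts was taken as detected. The 7 WT libraries then held 20732, 20554, 21095, 21208, 20790, 21189 and 21120 genes. The 4 KO libraries held 17764, 17804, 18357 and 18115. Every KO library was below every WT library, with a mean of 20955 ± 259 (SD, n = 7) in WT and 18010.0 ± 279.5 (SD, n = 4) in KO. The difference of 2945 genes, or 14.1% of the WT mean, had a p of 0.0061 (exact permutation test, two-sided, the smallest that 330 splits can give in this test). The test took libraries as separate samples and was not run with like libraries summed. With the split genes left out the difference was 2927. At this depth 303 genes had at least 3 counts in all WT libraries and 0 in all KO libraries, and 1 gene had the opposite pattern, without the genes left out above. A gene at 0 in any WT mTEClo library could not be left out as lower. The part of the split in these 303 genes was thus not tested.

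**Figure D3:**
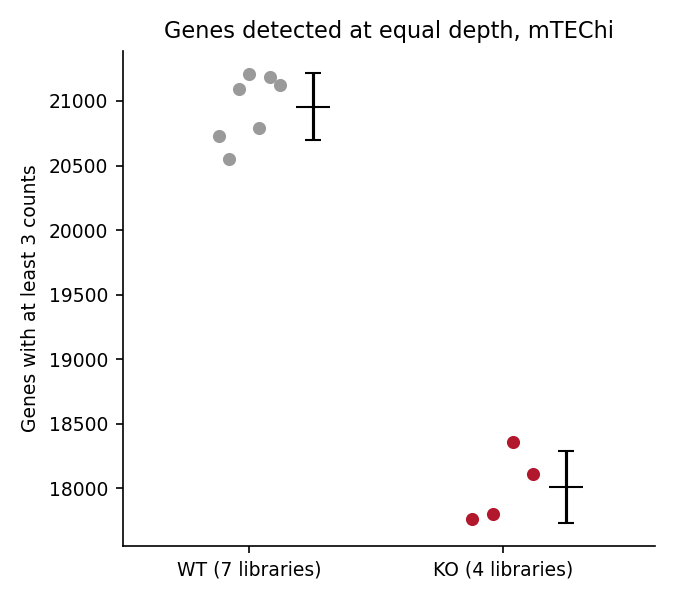
Genes with at least 3 counts in each mTEChi library after thinning to the same number of counts (vertical axis), as points by genotype, with the group mean as a line and 1 SD as a bar, on an axis that does not start at 0. The 4 KO libraries, 17764 to 18357 genes, lie below the 7 WT libraries, 20554 to 21208 genes.

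Nearly all of the 15 largest falls were of genes listed at 0 in KO. Muc2 (ENSMUSG00000025515, chromosome 7, 141690340 to 141754693), the gel-forming mucin of the intestine, was at 86.4, 119 and 140.3 CPM (lowest, median and highest) in WT and at 0, 0, 0.342 and 0 CPM in KO replicates 1 to 4. It had 1 count in 1 KO library, and was 1164-fold lower with a 95% counting interval of 209 to 45982 (log2 change -9.99, SE 1.68, adjusted p = 6.2e-05). Muc16, a membrane mucin of the airway and eye surface, was at 47.4, 62.4 and 92.3 CPM in WT and 0 in all 4 KO libraries, at least 214-fold lower (adjusted p = 1.5e-06). For genes at or near 0 the fitted log2 change hangs on an added prior count, so a lower limit of the fold is given where KO had no reads.

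Several of the other 13 largest falls encode products of muscle, liver and gut. Myh8, a myosin heavy chain of developing muscle, was at 32.7, 39 and 59.4 CPM in WT and 0 in every KO library, at least 138-fold lower (adjusted p = 1.0e-04). Cyp1a2, a drug-metabolising cytochrome P450 of the liver, was at 25.8, 51.6 and 65.3 CPM and then 0, at least 162-fold lower (adjusted p = 2.6e-10). Fgg, the gamma chain of fibrinogen, was at 20.7, 27.8 and 40.9 CPM and then 0, at least 99.3-fold lower (adjusted p = 5.9e-06). These liver genes thus had reads in each WT library and in none of KO. Gstm3, a glutathione transferase, was at 26, 38.7 and 45.7 CPM and then 0, at least 123-fold lower (adjusted p = 1.8e-10). Reg3b, an antibacterial lectin of the intestine, was at 12, 21.1 and 61.2 CPM and then 0, at least 99.7-fold lower (adjusted p = 0.0054). Its WT libraries were the most widely spread of these 5 genes.

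Others encode hormones, signals and structural proteins. Sst, the peptide hormone somatostatin, was at 18.9, 31.4 and 35.8 CPM in WT and 0 in KO, at least 94.2-fold lower (adjusted p = 0.0016). Lefty2, an inhibitor of Nodal signalling in the embryo, was at 23.5, 38.9 and 47.7 CPM and then 0, at least 124-fold lower (adjusted p = 1.4e-06). Krt13, a keratin of moist stratified epithelia, was at 40.2, 57.4 and 73.2 CPM and then 0, at least 192-fold lower (adjusted p = 1.7e-07). Tectb, a matrix protein of the inner ear, was at 16.8, 26 and 31.8 CPM and then 0, at least 86.9-fold lower (adjusted p = 1.1e-10). The rest of the 15, Calb2, the calcium-binding calretinin, Cytl1, a small secreted protein, Nmur2, a receptor for neuromedin U, and Prss29, a serine protease, were each listed at 0 in KO. Their lower bounds were 132-fold, 101-fold, 91.2-fold and 97.3-fold.

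The 8 largest falls in CPM, Aire among them, were of genes abundant in WT, Xist only in the 2 female libraries. Muc5ac, the gel-forming mucin of stomach and airway, was at 245, 321 and 419 CPM in WT and at 4.39, 2.86, 1.37 and 2.92 CPM in KO, 114-fold lower (log2 change -7.07, SE 1.00, adjusted p = 9.5e-06). Apob, the main protein of lipoproteins of the liver and intestine, was at 240.4, 348 and 423 CPM in WT and at 50.0, 85.1, 93.8 and 98.6 CPM in KO (log2 change -2.04, SE 0.40, adjusted p = 3.0e-04). The groups were apart for both genes, and Apob, 4.07-fold lower, kept reads in every KO library. Ahnak, a giant scaffold protein, fell from 718 ± 103 to 429 ± 22.8 CPM (log2 change -0.79, SE 0.10, adjusted p = 1.4e-07). Dsp, a desmosome plaque protein, fell from 913 ± 139 to 620.1 ± 56.9 CPM (log2 change -0.61, SE 0.11, adjusted p = 2.8e-05). Ttn, which encodes the muscle protein titin, fell from 2527 ± 357 to 1629.6 ± 265 CPM (log2 change -0.62, SE 0.21, adjusted p = 0.016), and no KO library reached the lowest WT library. The nuclear RNA Malat1 fell from 2727 ± 763 to 1934 ± 123 CPM (log2 change -0.59, SE 0.22, adjusted p = 0.032). Neither Ttn nor Malat1 passed once like libraries were summed with the GC correction, with log2 changes of -0.58 and -0.44. Xist, the RNA of the inactive X chromosome, also met the rule for this set, with 4.96, 10.4 and 1753 CPM in WT, where 2 libraries are female, and 0.878 to 2.51 CPM in KO. All KO libraries are male, and its log2 change in the fit with a sex term was -2.73.

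Sequences just before the start sites differed in base composition between genes that fell and genes that rose by over 2-fold. RefSeq gives a window of 250 bases before to 50 bases after the start for 12888 of the tested genes by symbol, on GRCm38.p6, of which the first listed start was used. The median ratio of observed to expected CpG in it was 0.382 for the 2276 genes lower by over 2-fold, 0.544 for the 566 higher by over 2-fold and 0.735 for the 5818 that did not pass. The letters TATAAA, on either strand, were in 15.5%, 9.36% and 8.28% of these windows, against 8.93% of those of all 12888 genes. The wider set of all 32851 RefSeq windows held them in 13.6%. On the gene's own strand, 45 to 10 bases before the start, they were in 5.84%, 1.59% and 1.74%. The letters GGGCGG, on either strand, were in 40.1%, 47.7% and 59.1%, against 57.6% for all 12888 genes and 35.7% for the wider set. Among the better expressed 7 of the 10 level classes, CpG ratios were 0.31, 0.57 and 0.77. Genes that changed by up to 2-fold, 1429 lower and 2799 higher, were alike, with CpG ratios of 0.779 and 0.762. Their windows held GGGCGG in 65.7% and 66.5%. These are descriptions with no test, and a match of letters is no evidence of binding.

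Windows poor and rich in CpG can be read in the 150 bases before the start of 3 genes lost in KO and 2 that rose. The latter are abundant genes, of which Tet2 rose by over 2-fold and Ralgapa2 by less. Bases are printed 5′ to 3′ on the gene's strand, and the genes were picked after their letters were seen to show both kinds. Capitals mark TATAAA or, on either strand, GGGCGG.
Cyp1a2, chr9:57683656-57683805, minus strand: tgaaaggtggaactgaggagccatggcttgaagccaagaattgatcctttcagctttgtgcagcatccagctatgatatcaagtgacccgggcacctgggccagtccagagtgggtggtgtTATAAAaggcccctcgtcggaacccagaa
Reg3b, chr6:78370735-78370884, plus strand: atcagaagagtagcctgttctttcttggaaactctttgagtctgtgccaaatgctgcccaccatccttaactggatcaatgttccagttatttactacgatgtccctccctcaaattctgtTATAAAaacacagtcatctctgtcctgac
Krt73, chr15:101802361-101802510, minus strand: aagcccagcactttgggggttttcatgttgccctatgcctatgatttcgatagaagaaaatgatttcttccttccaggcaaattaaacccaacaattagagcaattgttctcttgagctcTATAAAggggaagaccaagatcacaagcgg
Tet2, chr3:133544391-133544540, minus strand: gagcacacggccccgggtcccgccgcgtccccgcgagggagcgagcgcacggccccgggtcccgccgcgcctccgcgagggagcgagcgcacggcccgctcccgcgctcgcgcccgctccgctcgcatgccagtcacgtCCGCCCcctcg
Ralgapa2, chr2:146512005-146512154, minus strand: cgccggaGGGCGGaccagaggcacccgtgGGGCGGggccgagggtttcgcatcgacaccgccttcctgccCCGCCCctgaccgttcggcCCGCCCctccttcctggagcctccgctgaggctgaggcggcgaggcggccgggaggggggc
The first 3 have TATAAA beginning 29, 29 and 30 bases before the start and few CpG pairs, with CpG window ratios of 0.167, 0.21 and 0.28. The last 2 have no TATAAA in the window and ratios of 1.17 and 0.968. Not all lost genes looked like this: the window of Sst had a ratio of 0.707 and did not hold these letters, which says nothing of other sequences there. Nor did all genes that rose: the window of Ctla4 held TATAAA and no GGGCGG, with a ratio of 0.609.

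Antigens known as targets in autoimmune disease were lower in part of each list. Counts of these lists, here and in the next 2 paragraphs, stand against 27.6% lower and 25.3% higher of all tested genes. Ins2, which encodes insulin, was at 4.34, 10.4 and 15.8 CPM in WT and 0 in every KO library, at least 35.6-fold lower (adjusted p = 5.0e-08). Iapp, the islet amyloid peptide, was at 34.1, 42.9 and 71.2 CPM in WT and 4.83, 6.96, 17.8 and 12.5 CPM in KO (log2 change -2.18, SE 0.46, adjusted p = 4.6e-04). It fell but kept reads in each KO library, and the KO libraries of 6 weeks were the higher ones. Gad1, the enzyme that makes the transmitter GABA, fell from 79.1 ± 11.5 to 54 ± 2.62 CPM (log2 change -0.60, SE 0.14, adjusted p = 9.1e-04), and did not pass with like libraries summed and the GC correction (adjusted p = 0.061). Ptprn, the islet antigen IA-2, was higher in KO, 16.5 ± 4.74 against 27.9 ± 4.56 CPM (log2 change 0.79, SE 0.27, adjusted p = 0.015), with libraries that overlapped. With the GC correction it did not pass (log2 change 0.42, adjusted p = 0.19). Of the 6 measured islet antigens 3 were lower and 1 higher, with a median log2 change of -0.51, and 2 and 0 with like libraries summed and the GC correction.

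Of 6 measured antigens of lung, salivary gland and prostate 5 were lower and 0 higher (median -5.75, or -4.68 with members at 0 at their limit). Bpifb1, a secreted protein of the airway known as a lung target in Aire deficiency, was at 30.3, 37.2 and 44 CPM in WT and 1.32, 0.409, 0.342 and 0 CPM in KO (log2 change -6.21, SE 0.95, adjusted p = 1.7e-05). The prostate transglutaminase Tgm4 was lower by less, 4.63 ± 1.31 against 1.36 ± 0.618 CPM (log2 change -1.72, SE 0.39, adjusted p = 5.0e-04). Of 10 antigens of gut and liver 5 were lower and 0 higher (median -1.20). Fabp2, the intestinal fatty acid binding protein, was at 10.3, 15.6 and 22.9 CPM in WT and 0, 0, 0.342 and 0 CPM in KO, 163-fold lower with a 95% counting interval of 29.1 to 6471 (adjusted p = 5.8e-09). Gp2, a zymogen granule protein of the pancreas, fell from 96.9 ± 29.5 to 19.2 ± 10.5 CPM (log2 change -2.36, SE 0.32, adjusted p = 3.3e-06). Of 4 adrenal and gonad antigens 2 were lower. These were Cyp11a1, which starts steroid synthesis (26.2 ± 9.51 against 0.592 ± 0.204 CPM, log2 change -5.38), and the oocyte protein Nlrp5 (9.08 ± 3.0 against 0.11 ± 0.219 CPM, log2 change -5.92). Cyp17a1, a later enzyme of steroid synthesis, did not pass, at 13.9, 18 and 26.4 CPM in WT and 11.8, 13.9, 33.9 and 32.6 CPM in KO. Its 2 KO libraries of 6 weeks lay above the highest WT library and the 2 of 5 weeks below the lowest.

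Of 5 measured antigens of thyroid and parathyroid 1 was lower and 1 higher (20% each, median -0.42). Tg, thyroglobulin of the thyroid, did not pass (54.8 ± 13.1 against 43.5 ± 12.3 CPM, adjusted p = 0.1), and was lower with the GC correction (log2 change -0.57, adjusted p = 0.014). Casr, the calcium sensor of the parathyroid, was higher (74.2 ± 15.6 against 104 ± 10.4 CPM, adjusted p = 0.0021) with libraries that overlapped. It did not pass with like libraries summed and the GC correction (log2 change 0.26, adjusted p = 0.11). Of 13 measured antigens of eye, skin and nerve 8 were lower and 3 higher (median -0.97). Th, which makes the precursor of dopamine, was at 17.3, 22.3 and 39.99 CPM in WT and 0, 0, 0 and 0.418 CPM in KO, 248-fold lower with a 95% counting interval of 44.4 to 9835 (adjusted p = 8.4e-10). Chrna1, the muscle acetylcholine receptor targeted in myasthenia gravis, fell from 22.1 ± 4.02 to 6.02 ± 0.897 CPM (log2 change -1.74, SE 0.22, adjusted p = 1.3e-07).

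Regulators of mimetic lineages were lower in several lists, against 27.6% lower and 25.3% higher of all tested genes. In the airway, ciliated and ionocyte list 8 of 12 measured genes were lower and 0 higher (median -2.40). Mcidas, which starts the multiciliated program, was at 27.4, 40.8 and 53.6 CPM in WT and 0, 0.409, 0 and 0 CPM in KO, 406-fold lower with a 95% counting interval of 72.7 to 16072 (adjusted p = 2.0e-07). Trp73, a p53 relative needed for motile cilia, was at 12.4, 22.5 and 40.7 CPM in WT and 0.439, 0.409, 1.71 and 0 CPM in KO (log2 change -5.08, SE 0.40, adjusted p = 3.9e-11). Gmnc, which acts with Mcidas, fell from 24 ± 4.82 to 2.83 ± 0.99 CPM (log2 change -3.10, SE 0.32, adjusted p = 4.4e-09). Foxi1, the regulator of ionocytes, was at 14.6, 18 and 27.5 CPM in WT and 0.439, 0.409, 0.342 and 0.418 CPM in KO (log2 change -5.53, SE 0.56, adjusted p = 4.4e-09). For all 4 regulators the groups of libraries were apart. Motor proteins of cilia fell with them: of 17 axonemal dynein genes 12 were lower and 0 higher (median -1.94). Among them Dnah5 fell from 108 ± 10.4 to 21 ± 8.16 CPM, and Dnah2, from 112 ± 13 to 34.7 ± 3.6 CPM.

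Gut and liver regulators changed in both directions. Of 13 measured 7 were lower and 2 higher (median -1.01). Cdx2, the homeobox regulator of the intestine, was at 3.0, 6.04 and 8.93 CPM in WT and 0 in KO, at least 18.9-fold lower (adjusted p = 4.3e-07). Hnf4a, a nuclear receptor of liver and gut, was at 8.39, 16.1 and 19.6 CPM in WT and 1.76, 4.91, 2.05 and 4.18 CPM in KO (log2 change -2.22, SE 0.39, adjusted p = 2.8e-05). Of 7 measured pancreas and endocrine regulators 2 were lower, Isl1 (log2 change -0.85, SE 0.17, adjusted p = 1.1e-04) and Neurod1 (log2 change -2.27, SE 0.74, adjusted p = 0.011). This share lower, 28.6%, was near the 27.6% of all tested genes. Insm1 was the 1 higher one (log2 change 0.48, SE 0.16, adjusted p = 0.014), and the GC correction brought it to -0.02 on the log2 scale.

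The shares of tuft, muscle and skin regulators that passed were close to the 52.9% of all tested genes. Of 6 tuft and microfold regulators 1 was lower and 2 were higher, and 1 and 1 with like libraries summed and the GC correction. Sox9, a regulator of gut and duct progenitors, on this list, was higher, at 70.2, 105 and 124 CPM in WT and 229, 209.9, 185 and 184 CPM in KO (log2 change 1.02, SE 0.14, adjusted p = 9.8e-07). The microfold regulator Spib did not pass (264 ± 27 against 323 ± 81.8 CPM, adjusted p = 0.12), with KO libraries of 5 weeks at 396 and 392 CPM and of 6 weeks at 245 and 260.2 CPM. Of 4 measured muscle regulators 2 were lower, Pax7 of muscle stem cells (log2 change -1.92, SE 0.40, adjusted p = 2.3e-04) and Mef2c (log2 change -1.55, SE 0.36, adjusted p = 7.3e-04). Myog, which drives muscle fusion, did not pass (12.3 ± 4.09 against 7.22 ± 2.08 CPM, adjusted p = 0.11), and was lower with the GC correction (log2 change -1.04, adjusted p = 0.031). Among 8 skin regulators 3 were lower and 1 was higher, with changes under 2-fold, and 0 and 1 with like libraries summed. Among 8 neural and eye regulators 4 were lower and 2 higher. The higher ones were Olig2 (4.5 ± 1.75 against 15.4 ± 0.906 CPM) and Neurod4 (7.24 ± 2.4 against 20.8 ± 4.03 CPM), and the lower ones included Pou4f1 (10.7 ± 1.93 against 2.18 ± 2.07 CPM).

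Most tested members of several gene families of surface and secretory epithelia were lower, to be read against 27.6% lower and 25.3% higher of all tested genes. Of 41 measured keratins, the filament proteins of epithelia, 34 were lower and 1 higher (median -2.11). Krt73, of the inner root sheath of hair, was at 18.1, 29.4 and 38.4 CPM in WT and 0.439, 0, 0 and 0.418 CPM in KO (log2 change -7.09, SE 0.43, adjusted p = 4.6e-13). Krt19, of simple epithelia, was at 42, 53.3 and 71 CPM in WT and kept reads in KO, at 17.1, 12.7, 11.6 and 12.5 CPM (log2 change -2.06, SE 0.19, adjusted p = 6.2e-10). Of 24 kallikreins, serine proteases of skin and glands, 19 were lower and 0 higher (median -2.20), such as Klk7, from 40.1 ± 9.09 to 8.33 ± 3.83 CPM. Mucins gave 10 lower and 1 higher of 13 (median -2.97). BPI fold proteins, secreted in the airway and mouth, gave 10 and 1 of 11 (median -5.28), with Bpifb3 at 13.8, 20.4 and 25.7 CPM in WT and 0 in KO. All 5 measured Reg lectins and all 9 measured odorant binding proteins, lipocalins and major urinary proteins were lower (medians -4.56 and -6.94, the latter -4.40 with members at 0 at their limit). Most members of the last family, 36 in all, had too few counts to be tested, and the same held for other families of rare transcripts, so that a member could pass the filter on WT levels alone.

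**Figure D4:**
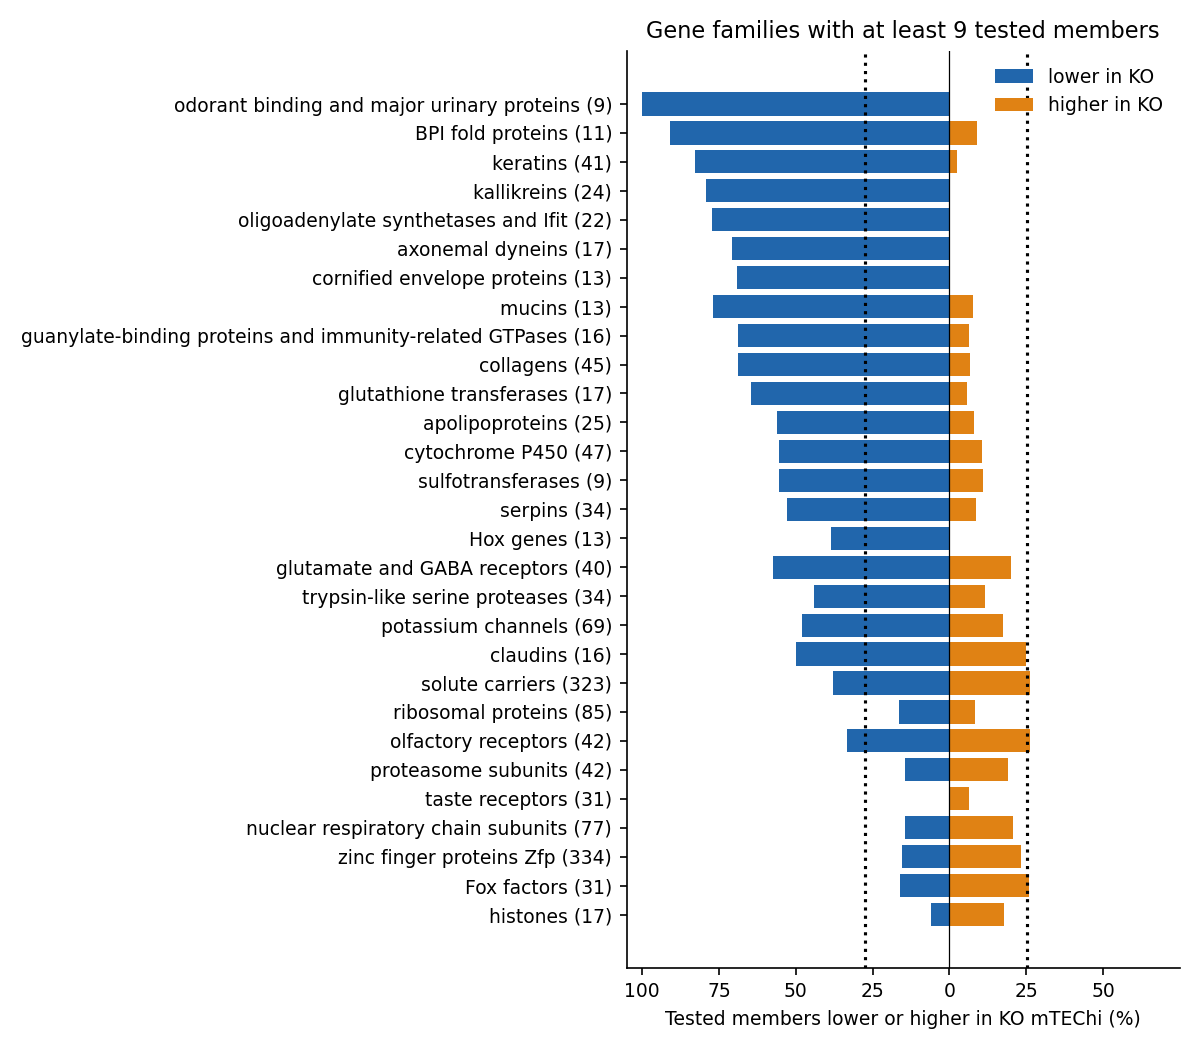
Share of tested members lower (blue, to the left) and higher (orange, to the right) in KO mTEChi at an adjusted p under 0.05, in percent, by gene family, for families of at least 9 tested members, whose number stands in brackets. Dotted lines mark the shares of all tested genes, 27.6% lower and 25.3% higher.

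Collagens, detoxification enzymes, serpins and receptors of GABA and glutamate also had a larger share lower than all tested genes. Ribosomal and proteasome genes had a smaller one. These are given as counts with no test, against 27.6% lower and 25.3% higher of all tested genes. Of 45 collagens 31 were lower and 3 higher (median -1.16). Col6a3, a chain of microfibrillar collagen, was at 90.6, 95.5 and 137 CPM in WT and 0.439, 0.409, 0 and 0.835 CPM in KO (log2 change -7.86, SE 0.45, adjusted p = 9.4e-13). Cytochrome P450 genes gave 26 lower and 5 higher of 47, glutathione transferases 11 and 1 of 17, and serpins 18 and 3 of 34. Receptors of GABA and glutamate gave 23 lower and 8 higher of 40 (median -1.24). Gabra5, a GABA receptor subunit, was listed at 0 in KO (6.2 to 11.8 CPM in WT), and Grin2d, an NMDA receptor subunit, was higher (27.3 ± 3.29 against 111 ± 29.5 CPM). Of 42 measured olfactory receptors 14 were lower and 11 higher, and 14 and 15 with the GC correction. All 1405 of that family summed to 651 to 799 CPM in WT and 319 to 493 CPM in KO. Of 31 taste receptors 0 were lower and 2 higher, and 2 and 1 with the 5-week libraries alone. Their median log2 change was -0.59, or 0 with members at 0 at their limit. All 43 taste receptors summed to only 51.6 to 81.6 CPM in WT and 79 to 105 CPM in KO. At such levels falls of single members were hard to see. A gene could enter the test through any of the 4 groups, those of mTEClo included. Ribosomal proteins, with a few ribosomal protein kinases caught by the same name pattern, gave 14 lower and 7 higher of 85 (median -0.06), and 7 and 12 with the 5-week libraries alone. Proteasome subunits gave 6 lower and 8 higher of 42 (median 0.04), and 9 and 7 with RLE factors.

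Genes induced by interferon formed another lower group, to be read against 27.6% lower and 25.3% higher of all tested genes. Of 22 measured oligoadenylate synthetases, Ifit and related antiviral genes 17 were lower and 0 higher (median -1.89). Ifit2, which binds foreign RNA, was at 31.9, 52.8 and 57.8 CPM in WT and 3.95, 0, 4.45 and 2.51 CPM in KO (log2 change -4.03, SE 0.29, adjusted p = 9.9e-12). Oas1e, a relative of the enzymes that sense double-stranded RNA, was at 14.5, 21 and 30.7 CPM and 0, 0, 0.342 and 0 CPM, 208-fold lower with a 95% counting interval of 37 to 8217 (adjusted p = 8.6e-11). Guanylate-binding proteins and immunity-related GTPases, which attack vacuoles of pathogens, gave 11 lower and 1 higher of 16 (median -1.10). Gbp2 was at 35.3, 41.4 and 48.6 CPM in WT and 10.5, 11, 11 and 10.0 CPM in KO (log2 change -1.92, SE 0.14, adjusted p = 1.0e-11), and the 4 KO libraries lay close together for it.

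Genes lower by over 2-fold lay next to each other on the chromosomes more often than tested genes at large. Of 2881 protein-coding genes lower by over 2-fold, 53% had a directly neighbouring tested protein-coding gene that was lower by over 2-fold too, against 32.5% of all 15336. For the 615 genes higher by over 2-fold the shares were 27% and 7.73%. Related genes often stand side by side, and counts without strand can share reads between overlapping neighbours, so members of a run are not independent. The runs named here were picked after their values were seen. The longest held 12 genes on chromosome 7, 17074040 to 18821607, mostly pregnancy-specific glycoproteins, with log2 changes from -1.16 to -7.81. A run of 10 BPI fold genes lay on chromosome 2, 153875045 to 154320646, and 1 of 10 kallikreins on chromosome 7, 43690418 to 43885804. Type I keratins gave a run of 9 on chromosome 11 and mast cell proteases, granzymes and Atp12a 1 of 8 on chromosome 14. A run of 5 on chromosome 7, 142650766 to 143019644, held Ins2 and Th, both described above, with Igf2, Ascl2 and Tspan32, at log2 changes from -2.80 to -8.06. There were 40 runs of at least 5 lower genes and 1 of higher genes.

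The largest rises were smaller than the largest falls and mostly started from low WT levels. AY761185 (ENSMUSG00000079120, chromosome 8, 20943694 to 20944710) was at 0, 0.357 and 1.07 CPM in WT and 18.9, 13.1, 16.8 and 16.3 CPM in KO (log2 change 4.75, SE 0.55, adjusted p = 2.7e-07), the largest fitted rise under the rule for named genes. Olfr1138, an olfactory receptor, was at 0.323, 0.62 and 1.81 CPM in WT and 10.5, 9.0, 11 and 9.19 CPM in KO (log2 change 3.93, SE 0.42, adjusted p = 9.1e-08). Olfr1140, near it on chromosome 2, was at 0.62, 1.8 and 3.62 CPM and 7.9, 8.59, 14 and 12.1 CPM (log2 change 2.79, SE 0.42, adjusted p = 9.3e-06). For these 3 genes each KO library was above all WT libraries. Nfam1, an immune receptor that signals to NFAT, was at 4.2, 7.14 and 9.36 CPM in WT and 59.7, 76.9, 54.8 and 54.3 CPM in KO (log2 change 3.13, SE 0.26, adjusted p = 7.8e-11). Ptchd4, a relative of the Hedgehog receptor Patched, was at 12, 18.2 and 18.7 CPM and 107, 131, 191 and 151 CPM (log2 change 3.11, SE 0.16, adjusted p = 1.7e-14), again with no overlap. Acot12, a thioesterase of the liver, was at 4.83, 7.5 and 10.0 CPM and 55.7, 53.6, 72.2 and 75.6 CPM (log2 change 3.01, SE 0.25, adjusted p = 9.1e-11). Plcd3, a phospholipase C, was at 1.86, 7.14 and 10.6 CPM in WT and 92.6, 79.8, 14.4 and 15.5 CPM in KO (log2 change 2.79, SE 0.45, adjusted p = 2.3e-05). Its 2 KO libraries of 5 weeks stood far above the 2 of 6 weeks, which lay just above the highest WT library. The rest of the 15 were Ctla4, Rgr, Ptgs2os2, H2-Pb, Fam19a1, Igll1, Mmrn2 and Lrfn3, with log2 changes from 2.61 to 3.08. AY761185, the olfactory receptors and other families of near-identical genes named here can share reads, so the split between members is uncertain.

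Rises in abundant genes were close to 2-fold. Tet2, which oxidises methylated cytosine in DNA, was at 375, 424 and 464 CPM in WT and 892, 914, 1126 and 1113 CPM in KO (log2 change 1.26, SE 0.09, adjusted p = 1.3e-11). Tmem131l, a transmembrane protein, was at 302, 325 and 403 CPM and 820.0, 820.0, 879 and 855 CPM (log2 change 1.29, SE 0.08, adjusted p = 1.4e-12). Ralgapa2, part of a GTPase-activating complex, was at 639, 678 and 720.1 CPM and 1305, 1312, 1249 and 1253 CPM (log2 change 0.92, SE 0.08, adjusted p = 5.4e-10). In all 3 the groups were apart by more than the range within either. Nos2, the inducible nitric oxide synthase, rose from 492 ± 40.5 to 1099.8 ± 131 CPM (log2 change 1.07, SE 0.21, adjusted p = 2.6e-04). Celsr1, a cadherin of planar cell polarity, rose from 778 ± 69.1 to 1457 ± 199.8 CPM (log2 change 0.90, SE 0.11, adjusted p = 2.1e-07), and Gas7, known from growth-arrested cells, from 507 ± 34.8 to 1040.5 ± 77.6 CPM (log2 change 1.01, SE 0.09, adjusted p = 4.7e-10). Fgd5, an exchange factor for Cdc42, rose from 572 ± 24 to 1119.8 ± 99.1 CPM (log2 change 0.96, SE 0.15, adjusted p = 8.1e-06). Sspo, which encodes the large secreted protein SCO-spondin, rose from 2043 ± 473 to 3861 ± 604 CPM (log2 change 0.97, SE 0.31, adjusted p = 0.014), and did not pass with like libraries summed and the GC correction (log2 change 0.49).

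Ctla4 (ENSMUSG00000026011, chromosome 1, 60887000 to 60915832), the inhibitory receptor that binds CD80 and CD86, was at 20.4, 14.4, 10.00, 11.8, 15.6, 18.1 and 18.6 CPM in WT replicates 1 to 7. In KO replicates 1 to 4 it was at 94.3, 111, 179 and 149 CPM. The lowest KO library was more than 4 times the highest WT library. The mean went from 15.6 ± 3.78 CPM (SD, n = 7) to 133 ± 38.3 CPM (SD, n = 4), 8.58-fold higher (log2 change 2.98, SE 0.24, adjusted p = 1.5e-10). T cells are known for this gene, so their markers stand beside it. Cd3e, of the T cell receptor complex, was at 1.07 to 3.62 CPM in WT and 0.685 to 2.19 CPM in KO, and Cd3g of the same complex at 2.72 to 5.58 and 0.342 to 0.439 CPM. Trac, the receptor's alpha constant gene, was at 4.5 to 13 and 5.27 to 8.18 CPM, and Foxp3, of regulatory T cells, at 0.30 to 3.87 and 1.25 to 2.46 CPM. Cd3e had too few counts to be tested, and none of the other 3 was higher in KO. Whether the Ctla4 reads came from mTECs was not tested. The summed level of the 22 listed T cell and thymocyte genes was 335 to 389.5 CPM in WT and 366 to 478 CPM in KO. Of the 15 tested, 6 were lower and 1 was higher, the transcription factor gene Tcf7 (130.4 ± 9.68 against 265 ± 53.3 CPM, adjusted p = 3.5e-06). These shares, 40% and 6.67%, stand against 27.6% lower and 25.3% higher of all tested genes.

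The costimulation and checkpoint list, which holds Ctla4, had more members higher than lower, 11 against 4 of 21 (median 0.57). These shares, 52.4% and 19%, stand against 25.3% higher and 27.6% lower of all tested genes. With like libraries summed and the GC correction 8 were higher and 4 lower. Tnfsf9, the ligand 4-1BBL, was at 22.8, 30.3 and 31.4 CPM in WT and 93, 99.4, 81.8 and 81.9 CPM in KO (log2 change 1.58, SE 0.14, adjusted p = 2.7e-10). Tnfrsf14, the herpesvirus entry mediator, rose from 65.6 ± 8.8 to 129 ± 8.91 CPM (log2 change 0.98, SE 0.13, adjusted p = 5.3e-07). Cd276, the coreceptor ligand B7-H3, rose from 19.2 ± 4.01 to 43.7 ± 1.4 CPM (log2 change 1.12, SE 0.16, adjusted p = 9.4e-07). Tnfsf4, the ligand OX40L, went the other way, 6.3, 9.64 and 12 CPM in WT and 0.878, 0.818, 1.71 and 0.835 CPM in KO (log2 change -3.08, SE 0.42, adjusted p = 5.4e-07). For all 4 the libraries of the groups did not overlap. The summed level of the list was 1289 to 1389 CPM in WT and 2042 to 2239.8 CPM in KO.

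Among mTEC identity genes 11 of 26 were higher and 4 lower (median 0.25), and with like libraries summed and the GC correction 3 and 5. The first shares, 42.3% and 15.4%, stand against 25.3% higher and 27.6% lower of all tested genes. H2-Oa and H2-DMa act on the loading of MHC class II. The former rose from 58.9 ± 17.3 to 160.1 ± 16.3 CPM (log2 change 1.46, SE 0.20, adjusted p = 9.7e-07) and the latter from 114 ± 2.45 to 191 ± 29.6 CPM (log2 change 0.75, SE 0.10, adjusted p = 3.6e-07). Ctss, the protease that prepares MHC class II for peptide, rose from 139 ± 17.2 to 206 ± 4.57 CPM (log2 change 0.54, SE 0.10, adjusted p = 7.5e-05). H2-Aa itself did not pass (adjusted p = 0.98), nor did Epcam (log2 change -0.17, adjusted p = 0.14), which was lower with the GC correction (log2 change -0.35, adjusted p = 0.0061).

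Of 26 measured partners of Aire and elongation genes 8 were lower and 10 higher (median 0.08). These shares, 30.8% and 38.5%, stand against 27.6% and 25.3% of all tested genes. With the GC correction 8 were lower and 4 higher, and with RLE factors 11 and 9, so that the balance of the list turned with the correction. Crebbp, the acetyltransferase CBP, rose from 455 ± 15.8 to 722 ± 10.4 CPM (log2 change 0.67, SE 0.07, adjusted p = 7.0e-09). Xrcc5, the Ku80 subunit of the DNA end-binding complex, fell from 21.8 ± 3.41 to 9.17 ± 2.88 CPM (log2 change -1.25, SE 0.17, adjusted p = 6.2e-07). Its kinase partner Prkdc fell from 153 ± 9.59 to 118 ± 17.7 CPM (log2 change -0.42, SE 0.09, adjusted p = 2.7e-04). Hexim1, which holds the elongation factor P-TEFb inactive, fell from 96.8 ± 13.2 to 68.9 ± 10.7 CPM (log2 change -0.53, SE 0.12, adjusted p = 2.9e-04).

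Chemokine and cytokine genes were more often lower, 13 of 27 against 4 higher (median -0.58). These shares, 48.1% and 14.8%, stand against 27.6% lower and 25.3% higher of all tested genes. With like libraries summed and the GC correction 9 were lower and 4 higher. The summed level of the list overlapped between the groups, 1443 to 1686 CPM in WT and 1520.2 to 1689 CPM in KO. Xcl1, which attracts cross-presenting dendritic cells, was at 1.8, 6.9 and 15.4 CPM in WT and 0.439, 0, 0 and 0 CPM in KO, 74.9-fold lower with a 95% counting interval of 13.2 to 2980.0 (adjusted p = 1.0e-06). Ccl28, a chemokine of mucosal epithelia, was at 8.4, 12.9 and 15 CPM and 0, 0.818, 3.77 and 4.18 CPM (log2 change -2.48, SE 0.40, adjusted p = 6.9e-06). Il15, which sustains natural killer and memory T cells, was higher, 40.2, 60.3 and 63.1 CPM in WT and 147, 143, 139.7 and 165 CPM in KO (log2 change 1.50, SE 0.10, adjusted p = 5.0e-12). Cxcl16, a transmembrane chemokine, rose from 79.7 ± 4.4 to 177 ± 17.1 CPM (log2 change 1.15, SE 0.08, adjusted p = 9.9e-12). Flt3l, a growth factor of dendritic cells, rose from 39 ± 7.9 to 108 ± 12.8 CPM (log2 change 1.48, SE 0.14, adjusted p = 1.8e-09).

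Markers of other cell types moved in both directions, and their part in the results above was not tested. Their counts stand against 27.6% lower and 25.3% higher of all tested genes. In bulk samples fewer cells of a type and less RNA per cell cannot be told apart. Of 9 fibroblast genes 6 were lower and 0 higher (summed level 348 to 516 CPM in WT and 263 to 287 in KO). Col1a1, the main collagen of connective tissue, was at 50.8, 112 and 182 CPM in WT and 1.32, 1.23, 0.685 and 0.418 CPM in KO (log2 change -6.80, SE 0.70, adjusted p = 1.3e-07). Pdgfra, a growth factor receptor of these cells, was at 2.7 to 13.2 and 0 to 0.418 CPM. Of 7 endothelial genes 5 were lower and 0 higher (summed 74.9 to 115 and 52 to 75.3 CPM), with Cdh5, the vascular cadherin, at 3.72 to 8.71 and 0 to 0.878 CPM and Tie1 at 0 in KO.

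Of 14 dendritic cell and macrophage genes 9 were lower and 3 higher (summed 498 to 556 and 608 to 671 CPM). These shares, 64.3% and 21.4%, and the counts below stand against 27.6% lower and 25.3% higher of all tested genes. The higher share here and the lower share of B cell genes, 30%, were near those of all tested genes. Adgre1, the macrophage antigen F4/80, was at 31.8, 36.1 and 47.7 CPM in WT and 0.878, 2.05, 0.685 and 0 CPM in KO (log2 change -5.29, SE 0.49, adjusted p = 1.4e-09). Itgax, which encodes CD11c, was at 1.2 to 9.64 and 0 to 0.835 CPM. Lyz2, a lysozyme, rose from 192 ± 22.4 to 289.7 ± 18.6 CPM (log2 change 0.58, SE 0.14, adjusted p = 0.0014). B cell genes gave 6 higher and 3 lower of 10 (summed 295 to 349 and 496 to 580.2 CPM), and 3 and 2 by over 2-fold. Blk, a kinase of B cells, was at 15.4, 18.6 and 22.8 CPM in WT and 103, 109, 70.2 and 67.2 CPM in KO (log2 change 2.20, SE 0.17, adjusted p = 2.6e-11). Ms4a1, another gene of B cells, went the other way and was lower by over 2-fold. General leukocyte genes gave 6 higher and 2 lower of 9, or 2 and 2 with like libraries summed and the GC correction (summed level 815 to 901 and 1191 to 1519 CPM). Cortical epithelial genes gave 4 higher and 4 lower of 10 (summed 906 to 1020.1 and 1158 to 1284 CPM). Dissociation stress genes gave 2 higher and 1 lower of 13, or 0 and 2 with the GC correction (summed level 524 to 817 and 704 to 1057 CPM). Housekeeping genes gave 1 higher and 3 lower of 16, or 5 and 2 with the 5-week libraries alone.

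GC content moved with part of the changes. From the class of genes with the lowest transcript GC content to the class with the highest, of 10 classes of equal size, the median log2 change went from -0.17 to 0.30. Within KO the ratio of replicate 3 to replicate 1 went the opposite way, from 0.37 to -0.42, and within WT that of replicate 1 to replicate 3 from 0.23 to -0.49, over genes above 20 CPM in WT. Falls over 2-fold made up 16.7% of the lowest class and 14.7% of the highest, and rises over 2-fold 4.16% and 8.37%. With the correction for GC content 3396 genes fell and 839 rose by over 2-fold.

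The 2 KO mTEClo libraries without mitochondrial counts allow a fit with a term for the 6 such libraries. It rests on 2 against 2 libraries of the other gate, and in it Aire itself had a log2 change of 0.09 (adjusted p = 0.96). Aire was at 7.58 and 3.13 CPM in KO mTEClo replicates 1 and 2 and at 0 and 0.243 CPM in replicates 3 and 4. In this fit 3420 genes were lower and 3388 higher, and 2572 and 1565 by over 2-fold. The keratins then counted 15 lower and 3 higher, the collagens 26 and 3, the kallikreins 11 and 0, the mucins 5 and 1, the BPI fold proteins 3 and 0, and the antiviral genes 13 and 0. Of the measured odorant binding and major urinary proteins 1 and 0 were lower and higher, of the B cell genes 0 and 1, of the endothelial genes 1 and 0 and of the neural and eye regulators 0 and 1.

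The KO effect differed between the gates for part of the genes. The difference between the change in mTEChi and that in mTEClo passed for 4696 of 18984 genes (24.7%), 2645 with the more negative change in mTEChi (13.9%) and 2051 with the more positive (10.8%). For Aire it did not pass, with a difference of 0.33 (adjusted p = 0.85), and its log2 change in mTEClo was -5.20 (adjusted p = 3.0e-05). The 6 libraries without mitochondrial counts are 4 of 4 of KO mTEChi and 2 of 4 of KO mTEClo, so this split moves with the difference between the gates, and its part was not tested. Muc16 changed by 0.02 (adjusted p = 0.98) in mTEClo and the difference was -10.60 (adjusted p = 4.9e-05). Trp73 changed by 0.46 (adjusted p = 0.14) there with a difference of -5.55 (adjusted p = 1.3e-09), and Col6a3 by 1.02 (adjusted p = 0.22) with -8.88 (adjusted p = 1.4e-07). For Muc2 and Ctla4 the difference did not pass, -6.20 (adjusted p = 0.3) and -0.56 (adjusted p = 0.38), and Ctla4 rose in mTEClo too, by 3.54 (adjusted p = 1.8e-07). Ptchd4 and Tet2 rose more in mTEChi, with differences of 2.22 (adjusted p = 8.6e-07) and 0.82 (adjusted p = 3.0e-05).

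The 2 KO libraries of 6 weeks differed from the 2 of 5 weeks, with 2715 genes past the threshold, 1419 lower at 6 weeks (7.47%) and 1296 higher (6.83%). With the GC correction the number in both directions was 1201. The libraries of each age were nearly alike in their counts, as given above, so age and the source of the pair cannot be told apart. With the 5-week libraries alone, 5 of WT and 2 of KO, 4959 genes were lower and 4110 higher in KO, and 3334 and 949 by over 2-fold.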

How the data were processed

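The table of whole-number counts per Ensembl gene was deposited by the authors for all 23 libraries. The submitters' processing notes name, without roles or order, HTSeq 0.11.2, Picard 2.21.1, STAR 2.7.3a, edgeR, fastp 0.20.0 and SAMtools 1.9, and the builds mm10 and GRCm38. Whether strand was used in counting is not given in the sources used here. The deposited table of normalised values was not used.

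Counts were fitted over all 23 libraries of the 4 groups of gate and genotype, with a sex term, by edgeR 4.0.16 in R 4.3.3 (TMM factors, filterByExpr with a minimum count of 10, robust quasi-likelihood test), and p-values were adjusted by Benjamini-Hochberg over all tested genes. CPM are counts scaled to a TMM-corrected library size of 1000000, and a fold against a group at 0 is taken against 3 counts over that group. Set aside were the 9 tested genes named mt- and 317 split genes. The values of the latter in the 6 KO libraries without mitochondrial counts lay all above or all below those of the other 17 libraries. Both sets stayed in the fit and out of counts of tested genes. All KO libraries are male, so the sex term rests on WT. The gene detection test was an exact permutation over libraries (scipy 1.17.1). Gene coordinates are of GENCODE M21 (GRCm38) and promoters of RefSeq.

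Named genes were Aire, Muc2 and Ctla4, the 15 largest falls and rises of log2 change and the 8 of mean CPM among genes that passed with groups that do not overlap and a mean of 5 CPM or more in 1 group, and from each list up to 5 and each family up to 3 members with the smallest p. All members of the marker lists of other cell types could be named. The sort markers, the set-aside example Med10 and members of runs stand outside this rule and were named after their values were seen. A few genes are not reported here. Members, lists and tests were chosen with earlier results of these data known. Families are name patterns, and that of ribosomal proteins also takes Rps6ka kinases. The fit was tested on simulated data. Alternatives comprised other scaling (DESeq2 1.42.0), filters, subsets, covariates, left-out libraries, a GC correction, summed libraries and classes by WT level, the last 3 added after the data were seen.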

Additional observations from a re-analysis of the deposited data

Results flagged for a closer look

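The KO effect differed between mTEChi and mTEClo in 4696 genes, by a test of the difference itself. Of 8 named genes looked at it did so for 5. The change in mTEChi minus that in mTEClo, on the log2 scale, was -10.60 for Muc16, -5.55 for Trp73 and -8.88 for Col6a3, and 2.22 for Ptchd4 and 0.82 for Tet2. The 6 libraries without mitochondrial counts are spread unequally over the gates, and their part was not tested.

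Of 34 genes described in detail, the values of 55 groups of libraries were tested for a single library far from the others, and 4 stood out, where chance gives about 1 in 20. The highest WT library of Col6a3, at 137 CPM, and of Myh8, at 59.4 CPM, lay well above the other WT libraries. The lowest WT library of Ptchd4, at 12 CPM, and of Tnfsf9, at 22.8 CPM, lay well below the others. All 4 genes kept groups that did not overlap.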

How the results depend on the processing

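The count of genes lower in KO mTEChi was 5234, and with each library left out in turn it lay between 4733 and 5128. That of higher genes was 4807, and then 4315 to 4771. Over 2-fold, 3291 and 1031 were lower and higher, and then 3189 to 3286 and 980.0 to 1143. The deficit of detected genes, 2945, was then 2863 to 3061. The term for the 6 libraries gave 3420 lower genes, and 1565 higher by over 2-fold. Asking for over 2-fold as well gave 3291 lower and 1031 higher. Summed libraries gave 3010 higher genes, and 2575 with the GC correction too. Without a filter on low counts, which adds weakly expressed genes, 5952 were lower by over 2-fold, and falls made up 62.7% of all calls, with 7664 lower and 4559 higher and a median log2 change of -0.38. At an adjusted p under 0.01 the gate difference held for 2810 genes and the age difference in KO for 1349, and the latter held for 1201 with the GC correction. In the 8 mTEChi libraries of replicates 1 to 4, a replicate block gave 4530 lower and 3560 higher genes against 5205 and 4281 with no replicate block, and 3178 and 1063 against 3339 and 1092 over 2-fold. Deviations of same-numbered WT and KO libraries correlated at -0.15 to -0.06. The lower numbers were of the younger mice in both groups, so these values cannot show whether replicate numbers paired samples. Of 119 named genes that passed, 67 kept call and direction in every alternative run.

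With the term for the 6 libraries the log2 change turned to 0.088 for Aire, 0.60 for Itgax, 0.38 for Malat1, 0.14 for Med10, -2.14 for Ptgs2os2, -0.79 for Ptprn and 0.61 for Ttn. Insm1 turned to -0.022 with the GC correction and -0.15 with libraries summed too, and Cyp17a1 to -0.68 with the 5-week libraries alone. The causes were not tested. Totals of 1602125 to 3231079 reads limit what can be seen of genes under about 1 CPM.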

Other observations

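Classes of transcript differed in balance, described here with no test. Of 15336 protein-coding genes 30.6% were lower in KO mTEChi and 25.7% higher. Of 563 long intergenic RNAs 19.4% were lower and 30.2% higher, and of 377 processed pseudogenes 8.49% and 27.6%. Rises of over 2-fold made up 19.7% of the long intergenic RNAs and 17.5% of the pseudogenes, against 4.01% of protein-coding genes. Pseudogenes can take reads of their parent genes, and the part of the split between libraries in these classes was not tested.

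Counts of further families stand against 27.6% lower and 25.3% higher of all tested genes. Of 8 measured UDP-glucuronosyltransferases, enzymes of bile and drug conjugation, 6 were lower and 0 higher (median log2 change -2.43). Of 13 cornified envelope genes of skin 9 were lower and 0 higher (median -1.98). Caseins gave 2 lower and 0 higher of 4, beta defensins 2 and 1 of 5, and trypsin-like serine proteases 15 and 4 of 34. All 7 measured vomeronasal receptors, of 324 listed, were lower, and with the term for the 6 libraries 0 were. Potassium channel genes gave 33 lower and 12 higher of 69, and zinc finger genes named Zfp 52 and 78 of 334, or 53 and 46 with that term. The first Zfp shares were 15.6% lower and 23.4% higher, so that the higher share was near that of all tested genes.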
